A study of Danio rerio with 2 samples.

Results

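The ion channel genes described here were all genes of the count tables whose names start with *kcn*, *cacna*, *cacnb*, *cacng*, *scn1*, *scn2*, *scn3*, *scn4*, *scn5*, *scn8*, *hcn*, *trpa*, *trpc*, *trpm* or *trpv*, together with *abcc8*, that had at least 10 counts over the cells that passed a quality filter. Of the 24900 genes in the tables, 204 matched these names and 88 had enough counts. Another 55 had 1 to 9 counts and 61 had 0. The limit fell among very low genes, with 2 genes at 10 counts just inside it and 3 genes at 9 counts just outside.

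Cells came from islets of 7 dpf zebrafish larvae, which were picked by hand, digested and sorted for green fluorescence. The control sample was *Tg(gcga:GFP)*, wild type at the glucagon receptor, and the other sample was gcgr-/-;*Tg(gcga:GFP)*, with disruptions of both receptor genes, *gcgra* and *gcgrb*. Both samples carried the transgene, in which the promoter of *gcga* drives GFP, and each genotype was 1 sample, with the number of larvae pooled not stated. Single cells were sorted into plates and sequenced from the 3′ end by a modified Smart-seq2 protocol.

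Islet cells are electrically excitable. When glucose rises, ATP closes the KATP channel of β cells, which is built from the pore Kir subunit encoded by *kcnj11* and the sulfonylurea receptor encoded by *abcc8*. The membrane depolarises, voltage-gated calcium channels open and hormone granules fuse with the membrane, while voltage-gated and calcium-activated potassium channels end each spike. In mammals, α and δ cells use the same machinery in a different balance, with more sodium current in the spikes of α cells.

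Counts were compared between cells grouped by their leading hormone, the transcript with the most counts among 8 hormone genes where it held at least 1% of a cell's counts. Of 576 sequenced cells, 444 passed a filter that asked for 500 genes or more and for 10% of mitochondrial counts or less, 156 control and 288 gcgr-/-. The labels call the cells α cells, but cells led by *gcga* or *gcgb* numbered 3 of 156 in the control sample and 106 of 288 in the gcgr-/- sample. Cells led by *sst1.1* numbered 36 control and 52 gcgr-/-, those led by *sst1.2* 29 and 29, and those led by *ins* 41 and 54. A further 94 cells had no leading hormone or were led by *sst2*, *gip* or *ghrl*. The 3 control cells led by glucagon are too few to set beside the gcgr-/- ones, so the levels of glucagon-led cells are those of the gcgr-/- sample.

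Passing cells held 3834 to 162322 counts in the control sample and 2231 to 286288 in the gcgr-/- sample, with medians of 22042 and 25522.5. The first letter of the cell codes was read as a plate and the prefix as a library, which no source states. By this reading the control cells came from 2 plates, A and B, and the gcgr-/- cells from 4 plates, C to F. Plate and genotype thus cannot be told apart. The 24 libraries used the same 48 cell barcodes, each in 12 libraries. The disrupted genes did not check the labels at this depth, since 2 control cells held 13 counts of *gcgra* and 3 gcgr-/- cells held 23, and *gcgrb* had 1 count in each sample. Many somatostatin-led cells carried a second hormone at 1% or more, 16 of 29 control and 19 of 29 gcgr-/- cells in the *sst1.2*-led group. In 13 of these 29 control and 16 of these 29 gcgr-/- cells *sst2*, another somatostatin gene, was at 1% or more. Of glucagon-led gcgr-/- cells 10 of 106 carried a second hormone. Each somatostatin gene was taken as a separate hormone but *gcga* and *gcgb* as 1, so these shares are unlike measures. Leaving out cells with a second hormone thus also left out *sst1.2*-led cells with *sst2*. Levels are given as CPM, the counts of a gene per 1000000 counts of all genes, summed over the cells of a group, and 95% intervals cover counting error only. Each read was taken as an independent count, although reads can be PCR copies, so the intervals are too narrow. A sample's cells do not replicate its genotype, and no test was made.

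The 88 channel genes were rarely counted. Together they took 15551 of 15043973 counts, or 0.103%, and a cell of the 4 hormone groups held a median of 3 to 4 of them, leaving out the 3 control glucagon-led cells. The median channel gene was counted in 8 of 444 cells, against 13 cells for all 13594 genes with at least 10 counts. In 34 of the 88 genes (38.6%) more than 50% of the counts came from 1 cell, against 26.8% of all genes with at least 10 counts. Only 9 genes were counted in 50 cells or more, and 6 were counted in 1 cell. Of the 88, 38 had counts in all 4 hormone groups, 14 in 1 group and 2 in none. These numbers were not computed for all genes, so they cannot be set beside a background share. No count was found in the control sample, with 156 cells against 288, for 15 of the 88 genes, against 10.9% of all genes with at least 10 counts, and none in the gcgr-/- sample for 3, against 3.02%.

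**Figure D1:**
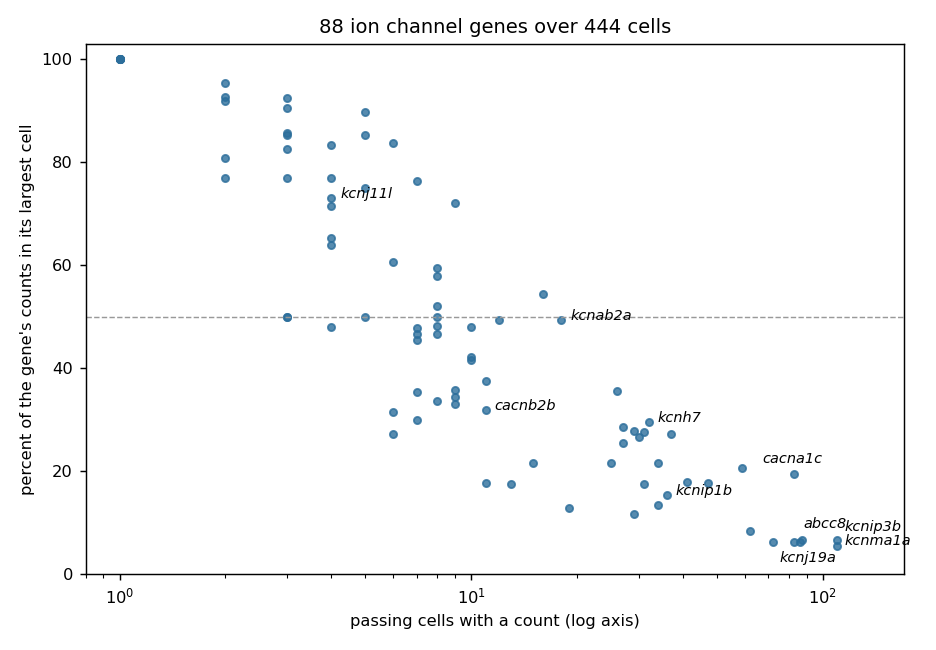
Cells with a count (log axis) against the percent of a gene's counts that came from its largest cell, with 1 point per channel gene over 444 passing cells. The dashed line is at 50 percent. The genes at the lower right, led by *kcnip3b* and *kcnma1a* with 110 cells each, are spread over many cells, while 34 genes lie above the line.

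When cells were thinned to 5000 counts each, to set shares at equal depth, the mean number of channel genes per cell was 2.15 ± 1.46 (SD over 105 cells) in glucagon-led gcgr-/- cells. It was 2.14 and 1.78 in *sst1.1*-led, 2.21 and 2.14 in *sst1.2*-led and 2.41 and 2.08 in *ins*-led cells of the control and gcgr-/- samples, with SDs from 1.27 to 1.57. Cells without a leading hormone had 1.26 in the control sample, where epithelial markers summed to 16679 CPM, and 2.0 in the gcgr-/- sample, where these markers summed to 339.8 CPM. Glucagon markers summed to 207 CPM in these control and 10550 CPM in these gcgr-/- cells, and endocrine markers to 155 and 1060 CPM. The part of these markers in the means was not tested.

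The sulfonylurea receptor *abcc8* was counted in every hormone group, and its share of cells was highest in *ins*-led control cells. There it had 84 counts in 15 of 41 cells (36.6%, interval 22.1 to 53.1%), which is 58.7 CPM (46.8 to 72.7). In *ins*-led gcgr-/- cells it had 69 counts in 11 of 54 cells (20.4%), 35.4 CPM (27.5 to 44.8). Glucagon-led gcgr-/- cells had 72 counts in 22 of 106 cells (20.8%), 17.5 CPM (13.7 to 22.0). The *sst1.1*-led cells were at 17.1 CPM in the control sample and 15.3 CPM in the gcgr-/- sample, and the *sst1.2*-led cells at 80.3 CPM, 23 of 39 counts being in 1 cell, and 20.9 CPM.

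In *ins*-led cells the summed level of *abcc8* was 2.0 times that of the other 3 groups in the gcgr-/- sample (1.47 to 2.71) and 1.81 times in the control sample (1.28 to 2.56), under the 3-fold limit used below. The other groups held 106 glucagon-led cells in the gcgr-/- sample but 3 in the control sample. The gcgr-/- ratio was 1.07 when the CPM of cells were averaged in place of summing their counts. At equal depth the shares were 24.4% and 13.2% in *ins*-led control and gcgr-/- cells, 7.62% in glucagon-led cells, 2.78% and 5.88% in *sst1.1*-led cells, and 17.9% and 10.3% in *sst1.2*-led cells.

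The pore subunit *kcnj11* had 0 counts in all 576 sequenced cells. Over the 444 passing cells this allows a share of cells with a count of up to 0.676%, the limit for 0 being set at 3 cells of the total here and below. A gene named *kcnj11l* had 41 counts in 4 cells, 30 of them in 1 cell. Reads were counted on coding sequence in 3′ libraries, so a gene whose 3′ reads fall in its UTR can be at 0 here while it is transcribed.

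The other inward rectifiers were led by *kcnj19a* and *kcnj19b*, paralogs of the inwardly rectifying potassium channel family. *kcnj19a* had 705 counts in 13 of 41 *ins*-led control cells (31.7%), 493 CPM (457 to 531). It had 263 counts in 13 of 54 *ins*-led gcgr-/- cells (24.1%), 135 CPM (119 to 152), and 790 counts in 26 of 106 glucagon-led cells (24.5%), 192 CPM (179 to 206). Cells led by *sst1.1* were at 108 CPM in the control sample, in 8 of 36 cells, and 83.7 CPM in the gcgr-/- sample, in 4 of 52 cells. Of cells led by *sst1.2*, 3 of 29 had a count in each sample, and 171 of the 176 control counts were in 1 cell.

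*kcnj19b* was most widely counted in *sst1.2*-led gcgr-/- cells, where it had 118 counts in 12 of 29 cells (41.4%, 23.5 to 61.1%), 88.2 CPM. In the control sample *sst1.2*-led cells had 46 counts in 7 of 29 cells (24.1%), 94.7 CPM. The other gcgr-/- groups had it in 11.1% of *ins*-led, 13.5% of *sst1.1*-led and 17.9% of glucagon-led cells, and at 5000 counts per cell the shares were 27.6% in *sst1.2*-led cells against 7.66% in the other 3 groups together. The paralogs shared 17 cells, where the product of their shares gives 16.3 cells. How reads that fit both copies were counted is not stated.

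Of 5 tandem-pore potassium channel genes, whose products carry leak currents, *kcnk3b* had 21 counts in 6 of 29 *sst1.2*-led gcgr-/- cells, 15.7 CPM. It had 8 counts in 3 of 29 *sst1.2*-led control cells, 16.5 CPM, and 11 counts in 2 of 106 glucagon-led cells, 2.67 CPM. None of the 6 *sst1.2*-led gcgr-/- cells kept a count at 5000 counts per cell, so that share was not detectable at equal depth. In plates C to F *kcnk3b* was at 2.39, 23.6, 1.94 and 16.7 CPM in *sst1.1*-led cells. The *sst1.2*-led cells of these plates were at 17.3, 32.0, 11.3 and 0 CPM. Among *ins*-led control cells it had 25 counts in 2 of 20 cells of plate B and 0 counts in 21 cells of plate A.

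The calcium-activated potassium channels were led by *kcnma1a*, which encodes the pore of the large-conductance (BK) channel and was counted in 110 cells. It had 277 counts in 41 of 106 glucagon-led gcgr-/- cells (38.7%, 29.4 to 48.6%), 67.2 CPM. The *sst1.1*-led cells had 93 counts in 8 of 36 control cells, 72.5 CPM, and 101 counts in 18 of 52 gcgr-/- cells (34.6%), 67.1 CPM. Levels were 37.1 and 38.9 CPM in *sst1.2*-led and 25.2 and 47.2 CPM in *ins*-led cells of the control and gcgr-/- samples. Thinned shares ran from 12.2% to 20% over these groups, a narrower range than the 13.8% to 38.7% at full depth. *kcnn3*, a small-conductance calcium-activated channel, had 25 counts in 5 of 29 *sst1.2*-led gcgr-/- cells, 20 of them in 1 cell.

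Among 19 voltage-gated potassium channel pores, the ether-a-go-go related genes *kcnh6a* and *kcnh7*, which encode channels that repolarise the membrane, differed in the groups they were counted in. *kcnh6a* had 127 counts in 15 of 106 glucagon-led cells (14.2%), 30.8 CPM (25.7 to 36.7), from 12 libraries. It had 18 counts in 5 of 36 control and 27 counts in 5 of 52 gcgr-/- *sst1.1*-led cells, 14.0 and 17.9 CPM. It had 0 counts in 41 *ins*-led control cells, which allows a share of up to 7.32%, and 3 counts in 2 of 54 gcgr-/- ones. Of the *sst1.2*-led cells, the control sample had 42 counts in 3 of 29 cells, 32 of them in 1 cell, and the gcgr-/- sample 2 counts.

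*kcnh7* had 140 counts in 10 of 52 *sst1.1*-led gcgr-/- cells (19.2%, 9.63 to 32.5%), 93.0 CPM (78.2 to 110), and 15.7% of these cells kept a count at 5000 counts. The *sst1.1*-led control cells had 3 counts in 2 of 36 cells, 2.34 CPM. Glucagon-led cells had 21 counts in 6 of 106 cells, 5.10 CPM. *ins*-led gcgr-/- cells had 114 counts in 4 of 54 cells, but 94 of these were in 1 cell, and *ins*-led control cells had 0 counts in 41 cells. *kcnc1a*, a delayed rectifier of fast-spiking neurons in mammals, had 76 counts in 3 of 29 *sst1.2*-led gcgr-/- cells, 59 of them in 1 cell. In plates C to F it was counted in 15.8, 6.67, 17.2 and 7.14% of glucagon-led cells. The *sst1.2*-led shares in these plates were 14.3, 0, 16.7 and 12.5%. *kcnq3*, a subunit of the slow M current, had 43 counts in 8 of 54 *ins*-led gcgr-/- cells (14.8%), 22.0 CPM, and 1 count in 41 *ins*-led control cells.

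The potassium channel interacting proteins *kcnip1b* and *kcnip3b* differed in the hormone groups they were counted in most often. They are calcium-binding partners of A-type potassium channels, and the mammalian KCNIP3 protein is also known as a calcium-regulated transcriptional repressor. Of 36 cells with *kcnip1b*, 26 were glucagon-led gcgr-/- cells, while the share of cells with *kcnip3b* was highest in the *ins*-led and *sst1.1*-led groups.

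*kcnip1b* had 377 counts in 26 of 106 glucagon-led gcgr-/- cells (24.5%, 16.7 to 33.8%), 91.5 CPM (82.5 to 101), from 15 libraries. The cells with a count ranged from 9.41 to 4125 CPM with a median of 292. It had 2 counts in 1 of 52 *sst1.1*-led cells, 72 counts in 3 of 29 *sst1.2*-led cells, of which 70 in 1 cell, and 57 counts in 4 of 54 *ins*-led cells. In the control sample it had 5 counts in 1 of the 106 cells led by *sst1.1*, *sst1.2* or *ins*. At 5000 counts per cell the shares in the gcgr-/- sample were 14.3% of glucagon-led cells and 3.01% of the other 3 groups together. In plates C to F the share of glucagon-led cells was 26.3, 23.3, 27.6 and 21.4%, so the share was steady while the level in plate C was several times that of the other plates.

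*kcnip3b* had 307 counts in 17 of 41 *ins*-led control cells (41.5%, 26.3 to 57.9%), 215 CPM (191 to 240), and 275 counts in 24 of 54 *ins*-led gcgr-/- cells (44.4%, 30.9 to 58.6%), 141 CPM (125 to 159). Cells led by *sst1.1* had 155 counts in 14 of 36 control cells (38.9%), 121 CPM, and 232 counts in 18 of 52 gcgr-/- cells (34.6%), 154 CPM. Of *sst1.2*-led cells, 4 of 29 in each sample had a count (13.8%), 96.8 and 41.1 CPM. Glucagon-led gcgr-/- cells had 182 counts in 19 of 106 cells (17.9%, 11.2 to 26.6%), 44.2 CPM.

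Thinned shares of *kcnip3b* kept this order, with 29.3% and 34.0% of *ins*-led, 25.0% and 23.5% of *sst1.1*-led, 10.7% and 10.3% of *sst1.2*-led and 11.4% of glucagon-led cells. The summed level in glucagon-led cells was 0.377 times that of the other groups (0.317 to 0.446). The ratio for *ins*-led and *sst1.1*-led gcgr-/- cells was 2.09 times (1.80 to 2.43) and 2.23 times that of the other 3 groups, below 3-fold. The *ins*-led ratio was 1.20 in thinned cells, and the *sst1.1*-led one 1.58 without plate F and 3.37 without plate C. The 2 genes were counted together in 8 cells, where the product of their shares gives 8.92.

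**Figure D2:**
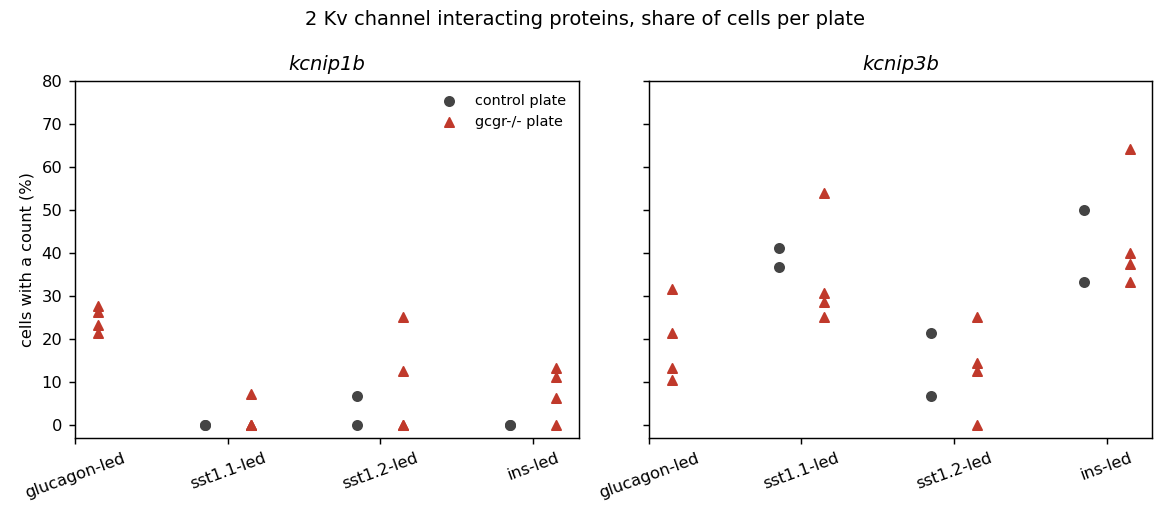
Share of cells with a count of *kcnip1b* (left) and *kcnip3b* (right) by leading hormone, 1 point per plate, with the 2 control plates as circles and the 4 gcgr-/- plates as triangles. Groups of 1 or 2 cells in a plate are not drawn. *kcnip1b* lies between 21.4 and 27.6% of glucagon-led cells in every gcgr-/- plate, and *kcnip3b* is highest in *ins*-led and *sst1.1*-led cells.

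Voltage-gated calcium channels open on depolarisation and let in the calcium that triggers exocytosis. Of the L-type pores, which carry much of the calcium current of mammalian β cells, *cacna1c* was counted in 83 cells, *cacna1da* in 15 and *cacna1db* in 10. *cacna1c* was present in every hormone group. It had 179 counts in 22 of 106 glucagon-led cells (20.8%), 43.5 CPM, and 46 counts in 5 of 36 control and 192 counts in 9 of 52 gcgr-/- *sst1.1*-led cells, 35.8 and 128 CPM, where 155 of the 192 counts were in 1 cell. Cells led by *sst1.2* were at 59.7 and 65.0 CPM, in 6 and 7 of 29 cells, with 62 of the 87 gcgr-/- counts in 1 cell. Cells led by *ins* were at 70.6 CPM in 11 of 41 control cells, 58 of 101 counts being in 1 cell, and at 26.1 CPM in 10 of 54 gcgr-/- cells. Its share of cells ran from 13.9% to 26.8% with overlapping intervals, so that the groups could not be ordered.

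*cacna1da* had 30 counts in 7 of 106 glucagon-led cells (6.60%), 7.28 CPM, and 6 counts in 3 of the 135 cells of the other gcgr-/- groups. In control cells it had 12 counts in 2 of 36 *sst1.1*-led cells and 0 counts in 41 *ins*-led cells. *cacna1db* had 102 counts in 10 cells, all of them gcgr-/-, with 4 of the 10 among 54 *ins*-led cells. No cell held both copies, where the product of their shares gives 0.338 cells.

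Of the P/Q-type pores, *cacna1ab* had 253 counts in 13 of 106 glucagon-led cells (12.3%, 6.69 to 20.1%), 61.4 CPM, with 121 of the counts in 1 cell. The other 3 gcgr-/- groups had 44 counts in 7 of 135 cells, and *sst1.2*-led gcgr-/- cells had 0 counts in 29 cells. In the control sample it had 53 counts in 5 of 36 *sst1.1*-led cells, 41.3 CPM, against 18 counts in 5 of 52 in the gcgr-/- sample, 12 CPM. Its copy *cacna1aa* had 198 counts in 19 of 106 glucagon-led cells, 48.1 CPM, and 45 and 92 counts in 10 of 41 and 12 of 54 *ins*-led cells, 31.5 and 47.2 CPM. It was rare in somatostatin-led cells, with 2 of 36, 3 of 52, 1 of 29 and 2 of 29 cells.

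Of the N-type pores, *cacna1ba* had 12 counts in 9 of 41 *ins*-led control cells (22.0%) and 22 counts in 3 of 54 *ins*-led gcgr-/- cells, 20 of them in 1 cell. It had 12 counts in 5 of 36 *sst1.1*-led control cells and 0 counts in 52 gcgr-/- ones. *cacna1bb* had 64 counts in 4 of 29 *sst1.2*-led gcgr-/- cells, 51 of them in 1 cell. *cacna2d2a*, an α2δ auxiliary subunit that brings calcium channels to the membrane, was the most widely counted of the 12 auxiliary genes, in 72 cells. Its share of cells ran from 13.5% to 20.7% over the 7 groups with 10 or more cells, and its level from 24.3 CPM in glucagon-led to 96.8 CPM in *sst1.2*-led control cells.

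Sodium channels were led by *scn1lab*, a pore subunit counted in 62 cells. It had 242 counts in 21 of 106 glucagon-led cells (19.8%), 58.7 CPM. Cells led by *ins* had 95 counts in 7 of 41 control and 87 counts in 8 of 54 gcgr-/- cells, 66.4 and 44.6 CPM, and 57 of the control counts were in 1 cell. The *sst1.1*-led cells were at 10.9 CPM in 2 of 36 control cells and 58.4 CPM in 6 of 52 gcgr-/- cells, and the *sst1.2*-led cells at 18.5 CPM in 3 of 29 and 62.8 CPM in 7 of 29 cells. *scn3b*, an auxiliary β subunit, had 67 counts in 6 of 41 control and 17 counts in 4 of 54 gcgr-/- *ins*-led cells, 46.8 and 8.71 CPM. Among *sst1.1*-led cells it had 44 counts in 8 of 36 control and 7 counts in 1 of 52 gcgr-/- cells.

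Of the 17 genes whose names match the TRP cation channels, *trpc4apa* and *trpc4apb* are named for TRPC4-associated proteins and are not channels. The TRP names were together at 24.6 to 95.3 CPM in the 7 groups. No TRP gene was taken by the rule for named genes, and the TRPC4-associated genes were named after their values were seen.

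**Figure D3:**
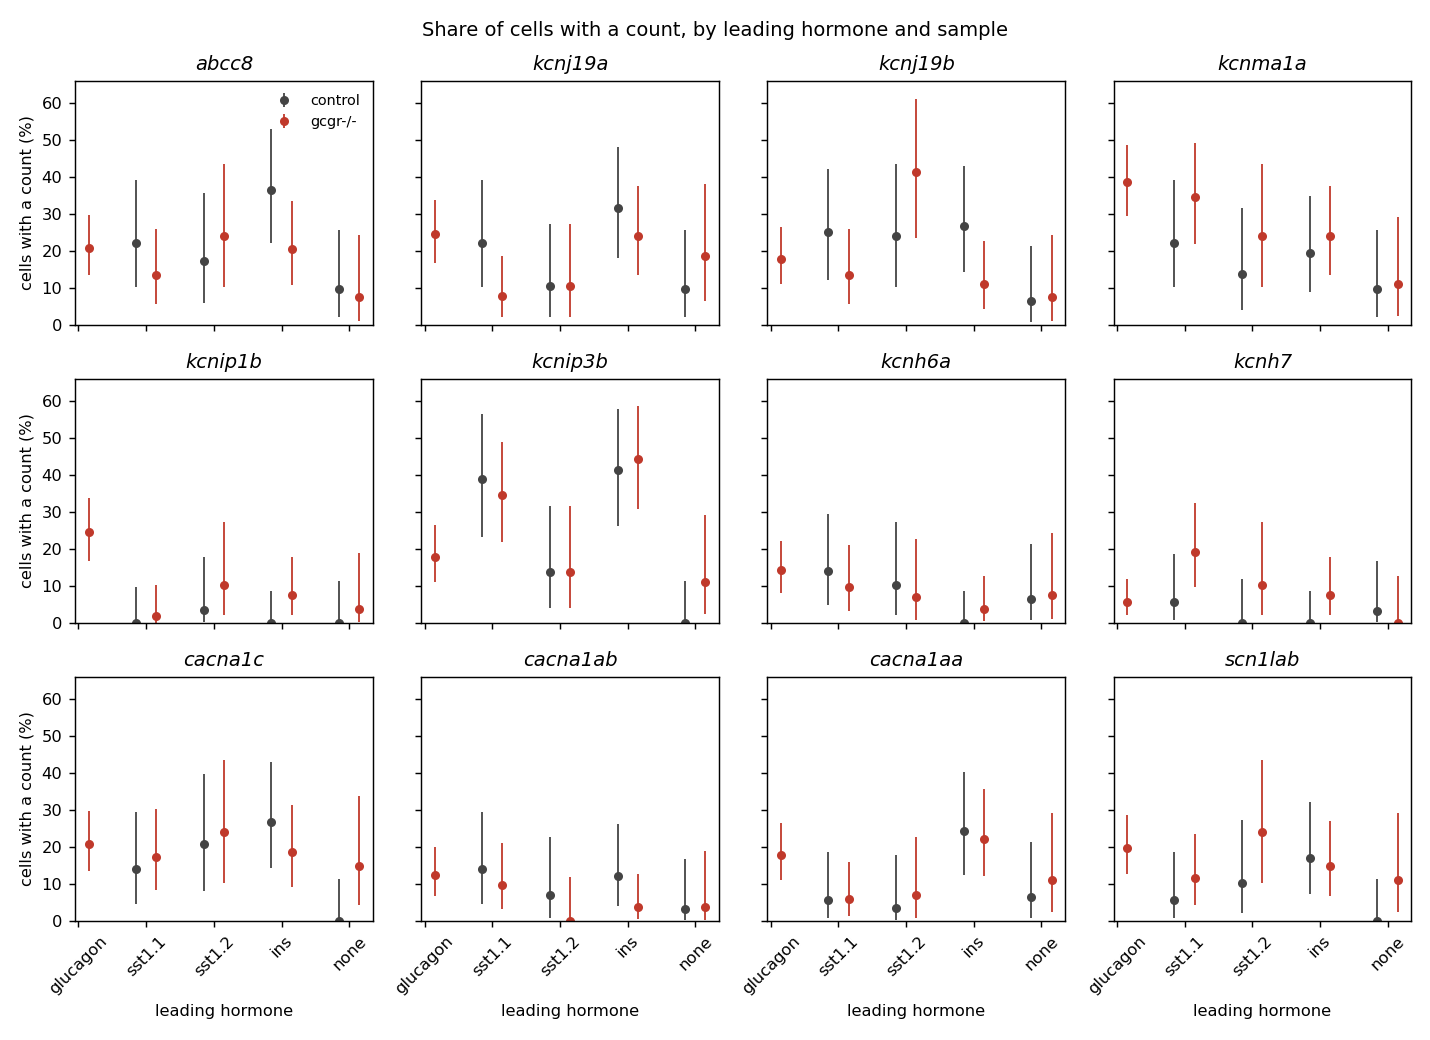
Share of cells with a count (percent, with exact binomial 95% intervals) of 12 channel genes by leading hormone, control in grey and gcgr-/- in red. Groups under 10 cells are not drawn, so glucagon-led cells appear for gcgr-/- only. The intervals of most groups overlap, with *kcnip1b* in 24.5% of glucagon-led cells and at most 10.3% of the other groups drawn.

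To ask which channels mark a hormone group, each gene's summed level in a group was divided by that in the other 3 groups of the same sample. For *sst1.1*-led, *sst1.2*-led and *ins*-led cells, these other groups held 106 glucagon-led cells in the gcgr-/- sample but 3 in the control sample. Ratios of the 2 samples thus have unlike references. A gene was said to mark a group when the ratio was at least 3, with a count in at least 3 cells of the group and in at least 10 cells of the 4 groups, a filter that 25 of the 88 genes passed in the gcgr-/- sample. In glucagon-led cells 4 channel genes passed 3-fold (16%, against 9.35% of all 5754 genes tested), *cacna1ab*, *cacna1da*, *kcnh6a* and *kcnip1b*. In *sst1.1*-led cells 1 did (4%, against 10.9%), *kcnh7*. In *sst1.2*-led cells 6 did (24%, against 7.94%), *cacna1bb*, *kcnn3*, *kcnc1a*, *kcnj19b*, *kcnk3b* and *scn3b*. In *ins*-led cells 1 did (4%, against 5.87%), *kcnq3*.

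Channels at least 3 times lower numbered 3 in glucagon-led (13.6% of all genes), 7 in *sst1.1*-led (19.5%), 8 in *sst1.2*-led (26.7%) and 5 in *ins*-led cells (20.9%). The median log2 ratio of the 25 channel genes was -0.12 in glucagon-led, -0.32 in *sst1.1*-led, -0.68 in *sst1.2*-led and -0.39 in *ins*-led cells, where the medians of all genes were -0.17, 0.03, -0.37 and -0.29. With 25 genes tested, counts this small lie near the background share for glucagon-led, *sst1.1*-led and *ins*-led cells. The *sst1.2*-led share, 24% against 7.94%, was above it. That count was lower under several alternatives given at the end, and higher with no minimum of cells. In the control sample, with its other reference, it was 0 of 13 genes. The background was not matched for how far a gene's counts gather in 1 cell.

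Of the 4 genes in glucagon-led cells, *kcnip1b* was 3.35 times higher (2.74 to 4.12) and *kcnh6a* 4.62 times (3.11 to 7.04), and both were higher in glucagon-led cells in each of the 4 plates. Within plates C to F, *kcnip1b* was at 240.2, 59.0, 48.2 and 69.4 CPM against 3.84, 30.2, 20.4 and 56.4 CPM in the other groups, so the difference was mainly that of plate C, and the ratio was 1.61 without plate C, 5.77 without plate F and 69.3 in the authors' table without potential β and δ cells. *kcnh6a* was at 21.1, 15.7, 25.2 and 59.7 CPM against 7.68, 1.95, 1.63 and 14.5 CPM, and its ratio stayed between 3.98 and 5.35 without any 1 plate. Over all alternatives it ran from 1.89, in that table, to 6.28. Of the gcgr-/- cells that table kept 44 of 52 *sst1.1*-led, 11 of 29 *sst1.2*-led and 1 of 54 *ins*-led cells. The ratios of *kcnip1b* and *kcnh6a* in it thus have a reference unlike that of the main ratios. *cacna1ab* was 6.69 times higher (4.84 to 9.44), in 3 of 4 plates, and from 1.18 times when a leading hormone had to hold 5% of counts to 29.1 times in thinned cells. *cacna1da* was 5.82 times higher (2.38 to 17.1), in 2 of 4 plates, and 2.08 times without plate C, 8.81 without plate D and 12.7 without plate E. Each of the 4 genes reached the filter's 10 cells only with its glucagon-led cells counted, which favours genes high in that group. The shares of all genes used the same filter. Of all genes past 3-fold in glucagon-led cells, 40.1% were higher in every plate.

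*kcnh7* was 4.82 times higher in *sst1.1*-led cells (3.79 to 6.12). It was at 138, 56.7, 106 and 41.8 CPM in plates C to F against 2.44, 61.7, 8.93 and 4.17 CPM in the other groups, higher in 3 of 4 plates, and the ratio was 3.13 without plate C and 18.4 without plate D, with 2.97 from mean per-cell CPM as the lowest. Of all genes past 3-fold in these cells, 20% were higher in every plate.

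Of the 6 genes in *sst1.2*-led cells, *kcnj19b* was 3.41 times higher (2.69 to 4.30) and was the only one higher in each of the 4 plates, as were 22.3% of all genes past 3-fold. It was at 190.7, 87.9, 30.2 and 31.3 CPM in plates C to F against 60.1, 20.4, 13.7 and 14.5 CPM, and its ratio was 2.35 without its largest cell and 9.73 without cells of a second hormone. In the control sample the ratio was 1.62 (1.14 to 2.26). *kcnk3b* was 3.40 times higher (1.88 to 6.0), in 3 of 4 plates. The other 4 rested on few cells. *cacna1bb* was 8.43 times higher (5.64 to 12.7) but 1.64 times without plate D and 18.3 times without plate F. It reached the filter's 10 cells only with its *sst1.2*-led cells counted. *kcnn3* was 5.24 times higher (2.92 to 9.38), but 1.03 times without plate E, 11 times without plate F and 30.8 times without cells of a second hormone. *kcnc1a* was 4.18 times higher (3.06 to 5.67) but 1.08 times without plate C and 15.6 times without plate E. *scn3b* was 3.18 times higher (1.91 to 5.21), but 0.285 times without plate D, 5.15 without plate C and 5.32 without plate F. In these gcgr-/- cells the 3 liver markers summed to 1304 CPM, from 0 to 28353 CPM per cell. Nearly all of this sum was *tfa*, with 1744 counts in 9 cells, while *apoa1b* had 1 count and *fabp10a* 0. In *sst1.2*-led control cells the sum was 68.0 CPM, with *fabp10a* and *apoa1b* at 0. The part of *tfa* RNA in the ratios was not tested.

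*kcnq3* was 3.49 times higher in *ins*-led gcgr-/- cells (2.24 to 5.44), in 2 of 4 plates, at 5.58, 45.5, 0 and 37.7 CPM in plates C to F, and 2.11 times without plate F. Of all genes past 3-fold in *ins*-led cells, 18.9% were higher in every plate.

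In the control sample 13 channel genes passed the filter. The groups a ratio was taken against held 3 glucagon-led cells there, against 106 in the gcgr-/- sample. *cacna1ab* marked *sst1.1*-led cells, 3.22 times higher (1.98 to 5.36), where 7.52% of all genes did. No channel gene marked *sst1.2*-led cells (10.5% of all genes did), and *scn1lab* marked *ins*-led cells, 4.62 times higher (2.99 to 7.37), where 9.54% of all genes did. Without plate A or without plate B no channel gene marked the *sst1.1*-led control cells, *cacna1ab* being at 1.49 and 5.07 times with fewer than 10 cells with a count left. *scn1lab* in *ins*-led cells was 4.16 times higher without plate A and 1.82 times without plate B, with 57 of its 95 counts in 1 cell. *cacna1ab* and *scn1lab* each reached the filter's 10 cells only with the cells of the marked group counted. Of 11 genes that passed the filter in both samples, 0 marked the same group in both, as against 1.11, 1.95 and 0.663% of all genes that passed in both for *sst1.1*-led, *sst1.2*-led and *ins*-led cells. *scn1lab* was 0.750 times as high in *ins*-led cells as in the other groups of the gcgr-/- sample.

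**Figure D4:**
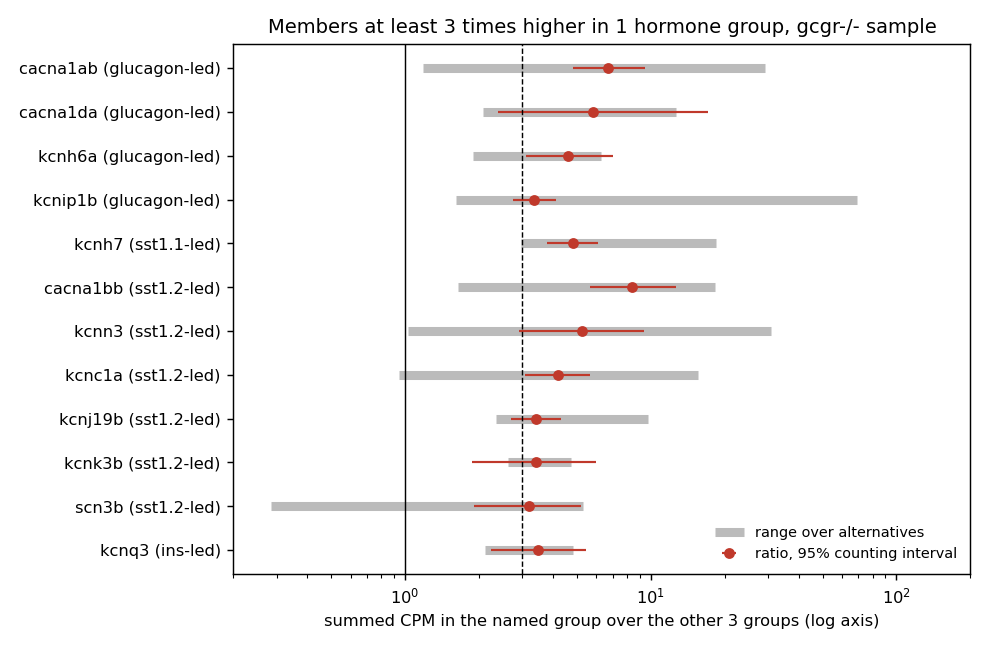
Ratio of summed CPM in the named hormone group to that in the other 3 groups, gcgr-/- sample (log axis), for the 12 channel genes at 3-fold or more. Points have 95% counting intervals, grey bars span the ratios over the alternatives of processing, and the dashed line is at 3. The grey bars reach below 3 for each of the 12 genes, and below 1 for *kcnc1a* and *scn3b*.

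Genotype was compared within the *sst1.1*-led, *sst1.2*-led and *ins*-led groups, for channel genes with a count in at least 10 cells of a group over both samples. These comparisons set the libraries of 1 sample beside those of another. The limit of 10 cells is reached more easily by a gene that is high in 1 sample. The shares of all genes used the same limit. Among *ins*-led cells 11 channel genes passed, of which 4 were at least 2 times lower in gcgr-/- cells and 0 at least 2 times higher, where 21.5% of all 2658 genes tested were lower and 26.3% higher, 47.8% in either direction. Their median log2 ratio was -0.61, against 0.05 for all genes.

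The 4 lower genes were *kcnj19a*, 0.274 times the control level (0.237 to 0.316), *kcnj19b*, 0.183 times (0.112 to 0.289), *scn3b*, 0.186 times (0.102 to 0.321), and *cacna1c*, 0.370 times (0.259 to 0.524). For *kcnj19a* the 2 control plates were at 379 and 657 CPM and the 4 gcgr-/- plates at 130, 143, 69.9 and 187 CPM. For *kcnj19b* they were at 84.0 and 42.7 CPM against 18.6, 20.5, 0 and 9.43 CPM, and for *scn3b* at 28.4 and 73.4 CPM against 26.1, 6.83, 0 and 0 CPM. All gcgr-/- plates lay below both control plates for these 3 of 11 genes, as they did for 11.2% of all genes tested, and above them for 0 of 11, against 10.3% of all genes (21.6% in either direction). For *scn3b* the gap was narrow. Its ratio was 0.119 without plate A, 0.307 without plate B and 0.0453 without plate C, and that of *kcnj19b* was 0.288 without plate A. Over all alternatives the ratios were 0.205 to 0.372 for *kcnj19a*, 0.135 to 0.417 for *kcnj19b* and 0.0453 to 0.464 for *scn3b*. *cacna1c* overlapped, at 20.1 and 143 CPM against 27.9, 43.2, 31.6 and 5.66 CPM, and its ratio was 0.182 without plate A, 1.30 without plate B and 0.852 without its largest cell.

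The share of cells moved less than the summed level. Of *ins*-led cells, 31.7% of the control and 24.1% of the gcgr-/- ones had a count of *kcnj19a*, 29.3% and 20.8% at equal depth, while the median of cells with a count was 1699 CPM and 538 CPM. *kcnj19b* was counted in 26.8% and 11.1%, 17.1% and 5.66% at equal depth. The other 7 genes lay between 0.602 times (*abcc8*) and 1.87 times (*kcnma1a*). Over these cells the summed glucagon markers were at 1104 CPM (control, 0 to 3782 per cell) and 3585 CPM (gcgr-/-, 182 to 51442 per cell), with 4 and 3 of 4 markers counted and *arxa* at 0 in the gcgr-/- cells. The acinar markers were at 79.0 and 0.513 CPM, at most 2428 and 25.3 CPM per cell, with 5 and 1 of 6 markers counted, *prss59.1* being at 0 in both. The insulin markers were at 156629 and 201077 CPM, and the median cell had 22994 and 28358 counts. The part of these in the ratios was not tested. With library totals taken without the 8 hormone genes the ratios were 0.288, 0.193, 0.196 and 0.390 for *kcnj19a*, *kcnj19b*, *scn3b* and *cacna1c*.

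Among *sst1.1*-led cells 10 channel genes passed, 2 higher and 1 lower in the gcgr-/- sample, where 34.9% of all genes were higher and 14.8% lower, 49.7% in either direction. *kcnh7* was 39.8 times higher (13.3 to 195) against 3 control counts. With 2 control cells holding a count, *kcnh7* reached the limit of 10 cells through its gcgr-/- cells, the sample where it was high. Its gcgr-/- plates were at 138, 56.7, 106 and 41.8 CPM and its control plates at 0 and 6.27 CPM, all above, as for 13.6% of all genes tested. Its ratio was 14.8 without plate A, 24.9 without plate B, 5.65 at 5000 counts per cell and 60.6 in cells of at least 10000 counts. Without plate B the control cells held 0 counts of *kcnh7*, so 24.9 rests on the 3 counts set for a sum of 0. *cacna1c* was 3.56 times higher (2.57 to 5.02), but 0.732 times without its largest cell, 2.35 times without plate A, 0.423 times without plate E and 6.47 times without cells of a second hormone. *cacna1ab* was 0.289 times the control level (0.160 to 0.502), and its plates overlapped, at 50.9 and 25.1 CPM against 2.39, 0, 13.6 and 27.9 CPM, with a ratio of 0.476 without plate A, 0.169 without plate F and 0.952 in the authors' table. No channel gene had every gcgr-/- plate below the control plates, against 5.95% of all genes, and 1 of 10, *kcnh7*, had plates apart in either direction, against 19.5% of all genes. The median log2 ratio of the 10 genes was -0.14, against 0.43 for all genes.

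Other values differed between these *sst1.1*-led cells of the control and gcgr-/- samples. The insulin markers summed to 16393 CPM (124 to 127258 per cell, 3 of 5 counted, *mnx1* and *slc30a8* at 0) and 4709 CPM (104 to 65546 per cell, 5 of 5). The glucagon markers were at 863 CPM (0 to 5825 per cell, 3 of 4, *arxa* at 0) and 2982 CPM (60.4 to 70905 per cell, 4 of 4), and the somatostatin markers at 226506 and 137765 CPM (10169 to 376215 and 12531 to 314834 per cell, 4 of 4 in both). The epithelial markers were at 41.3 and 420.4 CPM (0 to 2414 and 0 to 6687 per cell, 4 of 5 in both, *krt5* at 0), and the median cell had 28086.5 and 19188 counts. Their part in the ratios was not tested.

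Among *sst1.2*-led cells 6 channel genes passed, and *scn1lab* was 3.39 times higher (1.70 to 7.66) and *abcc8* 0.260 times the control level (0.154 to 0.434), where 25.8% of all genes were higher and 22% lower, 47.8% in either direction. Neither held across plates. *abcc8* was at 6.86 and 191 CPM in the control plates against 2.89, 21.3, 67.8 and 2.84 CPM, and its ratio was 0.110 without plate A, 3.05 without plate B and 0.116 without plate E. *scn1lab* was at 0 and 46.5 CPM against 14.4, 56.0, 181 and 28.4 CPM, and its ratio was 1.35 without plate A, 6.10 without plate B, 1.81 without plate E and 12.9 without cells of a second hormone. The *sst1.2*-led cells also differed in somatostatin markers, 137128 CPM in the control and 264366 CPM in the gcgr-/- sample, in glucagon markers, 616 and 1922 CPM with 4 of 4 counted in both, and in the median cell's counts, 14403 and 28798. The part of these in the ratios was not tested. None of the 6 genes had plates apart, against 20.8% of all genes, 10.3% above and 10.5% below.

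**Figure D5:**
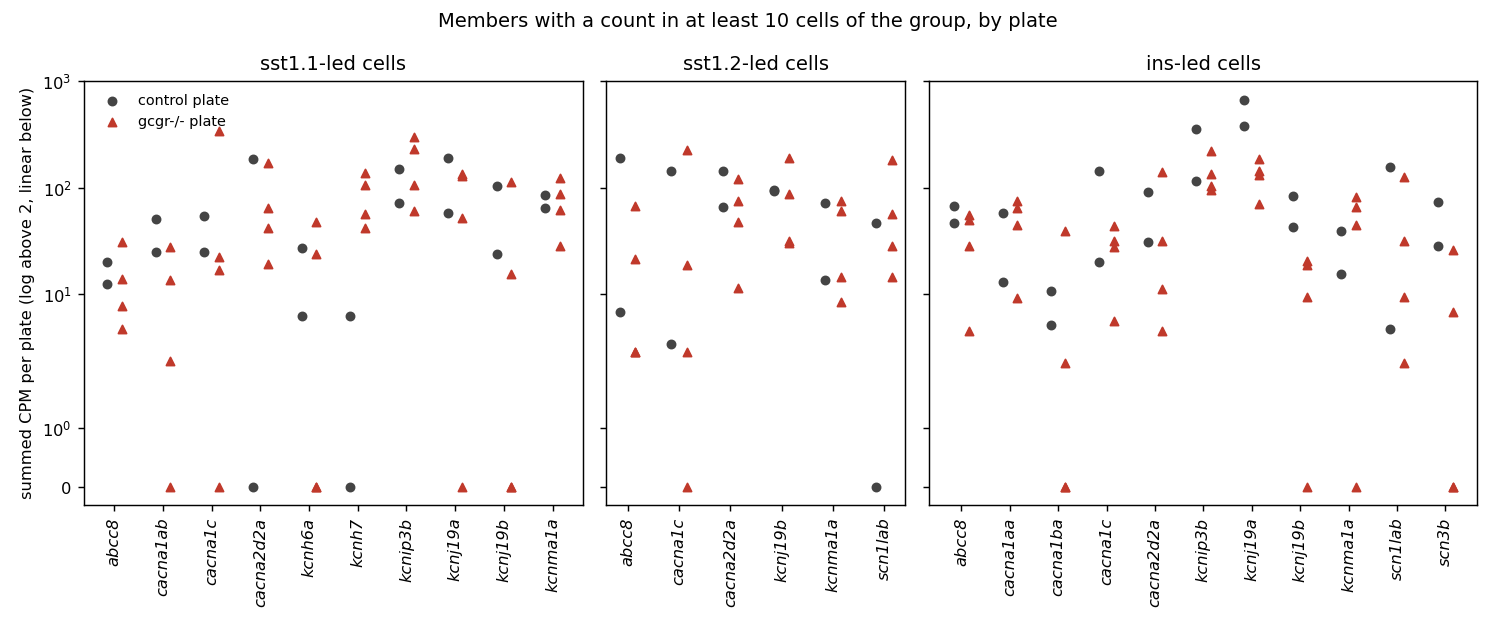
Summed CPM per plate (log scale above 2, linear below) of channel genes with a count in at least 10 cells of the group, for *sst1.1*-led, *sst1.2*-led and *ins*-led cells. The 2 control plates are grey circles and the 4 gcgr-/- plates red triangles. The plates lie apart for *kcnh7* in *sst1.1*-led cells and for *kcnj19a*, *kcnj19b* and *scn3b* in *ins*-led cells.

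Other genes of excitability and calcium handling were read from a list of 57 pumps, store channels, exchangers, chloride channels and auxiliary proteins, of which 23 passed the filter in the gcgr-/- sample. The rule for named genes did not cover this list, so its genes were named by their values. Their ratios were not run by plate or under the alternatives. In glucagon-led cells 5 of the 23 were at least 3 times higher and 2 lower, where 9.35% and 13.6% of all genes were. The higher ones were *dpp6a*, an auxiliary subunit of A-type potassium channels like the KCNIP proteins, at 22.3 against 1.88 CPM and in 14 glucagon-led of its 18 cells, *atp1a3a* and *atp1a3b*, sodium pump α subunits, *itpr1b*, a calcium release channel of the endoplasmic reticulum, and *nalcn*, a sodium leak channel.

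In *sst1.2*-led cells 1 of the 23 was higher and 5 lower (7.94% and 26.7% of all genes). This was *atp1a1b*, a sodium pump α subunit, at 170 CPM against 1.58 CPM, 107 times higher, with 19 of its 25 cells in this group. For *sst1.1*-led cells 1 was higher, the mitochondrial calcium uniporter *mcu*, and 6 lower (10.9% and 19.5% of all genes). For *ins*-led cells 0 were higher and 10 lower (5.87% and 20.9%), among them *nalcn* and *itpr1b*.

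By genotype, 4 of the 11 list genes that passed in *ins*-led cells were at least 2 times higher in gcgr-/- cells and 3 lower (26.3% and 21.5% of all genes), with the sodium pump subunit *atp1a1a.1* at 887 against 210 CPM and *unc80*, a partner of NALCN, at 115 against 431 CPM. In *sst1.1*-led cells 5 of 10 were higher and 1 lower (34.9% and 14.8% of all genes), with *atp1a1a.1* at 1231 against 408 CPM, and in *sst1.2*-led cells 2 of 8 were higher and 1 lower, near or below the 25.8% and 22% of all genes.

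Cells outside the 4 groups made up 21.2% of passing cells and held 18.7% of all counts. They held counts of 70 of the 88 channel genes, and more than 50% of the counts of 19 genes. No such shares were computed for all genes, so these numbers have no background beside them. Of the 19 genes, 18 were counted in fewer than 5 such cells. The exception, *kcnab2a*, an auxiliary β subunit of voltage-gated potassium channels, had 363 of its 389 counts there, in 9 cells, 5 control and 4 gcgr-/-. The 6 neuron markers (*elavl3*, *elavl4*, *snap25a*, *snap25b*, *syt1a* and *stmn2a*) summed to 1690 CPM in these 9 cells and 93.6 CPM in the other 85, and were counted in 7 of the 9 and 29 of the 85. In the hormone groups they summed to between 47.4 and 162 CPM, leaving out the 3 glucagon-led control cells, in which they had 0 counts. The 9 cells with *kcnab2a* also held other markers. Glucagon markers summed to 4417 CPM in the 9 and 3586 CPM in the other 85, counted in 7 of the 9. Epithelial markers summed to 1716 and 5848 CPM, in 4 of the 9, and endocrine markers to 202 and 549 CPM, in 7 of the 9. The kind of these cells was not tested. *scn8aa*, a neuronal sodium channel pore in mammals, had 160 of its 173 counts in 4 gcgr-/- cells outside the groups, where the neuron markers summed to 2228 CPM against 129 CPM in the other 90. Glucagon markers summed to 1623 CPM in these 4 cells and 3716 CPM in the other 90, and somatostatin markers to 2006 and 93817 CPM. Both lists were counted in all 4 cells, and their kind was not tested. *scn8aa* was named after its values were seen.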

How the data were processed

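GFP-sorted islet cells of 1 control and 1 gcgr-/- sample were used. The values are raw counts per gene and cell as the authors deposited them. According to the submitters' processing notes the tools were Trim Galore, STAR and featureCounts with GRCz11, and the study's methods state counting on coding sequence. No versions, strand setting or collapsing of molecular identifiers are given in the sources used here. All cells were read from the tables of all sequenced cells, and the authors' tables without potential β and δ cells gave only the codes of the cells kept, which form 1 alternative. These kept 1 of 54 *ins*-led but 44 of 52 *sst1.1*-led gcgr-/- cells, so ratios between groups have another reference in that alternative. Genes were joined by position, since 17 names were spelled differently between the tables. The first letter of the cell codes was read as a plate and the prefix as a library, a reading that no source states.

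Cells with at least 500 genes and at most 10% mitochondrial counts were grouped by the hormone transcript with the most counts at 1% or more. No doublet caller was run. Counts were summed per group and sample and given as CPM. Sums have exact Poisson, shares exact binomial (Clopper-Pearson) and ratios exact conditional intervals at the 95% level. A sum of 0 was set at 3 counts over the group for a ratio, and a share of 0 at up to 3 cells of the total. Cells were thinned to 5000 counts without replacement (4 passing cells had fewer). Limits of 3-fold between groups and 2-fold between genotypes were applied. The interval was tested only on simulated data in which all cells of a sample shared 1 profile. The real counts were often gathered in 1 cell, so that test cannot show how well the interval holds here. The members, lists and limits were chosen with earlier results of these data known.

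Genes were named by a rule: *abcc8*, *kcnj11*, *cacna1c*, *cacna1da* and *cacna1db*, the 6 genes with the highest level in each hormone group, up to 6 with the largest ratio among those that mark a group, and the 4 largest genotype ratios in each direction in each group. Lengths and 3′ coverage differ between genes, so the ranks used to choose and order genes are ranks of counts only. Python 3.11.15, numpy 2.4.6, pandas 2.3.3, scipy 1.17.1 and matplotlib 3.10.9 were used. The alternatives were other cell filters, a 5% hormone limit, thinned counts, means of per-cell CPM, totals without hormones, no minimum of cells, each gene's largest cell or each plate left out, the authors' kept cells and, chosen after seeing the data, cells with a second hormone left out. One result on a channel gene is not reported here.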

Additional observations from a re-analysis of the deposited data

Results flagged for a closer look

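The genotype ratio of *cacna1c*, the L-type calcium channel pore, went in opposite directions in 2 hormone groups, 3.56 in *sst1.1*-led cells and 0.370 in *ins*-led cells. The difference between the groups was not tested, and the gcgr-/- plates overlapped the control plates in both groups. The ratio was 0.732 in *sst1.1*-led cells without the gene's largest cell, which held 155 of 192 gcgr-/- counts, and 1.30 in *ins*-led cells without plate B.

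*kcnab2a* had 363 of its 389 counts in 9 cells outside the 4 hormone groups, which no comparison used, 97 in 5 control and 266 in 4 gcgr-/- cells, with 192 in 1 cell. Neuron markers summed to 1690 CPM in those 9 cells and 93.6 CPM in the other 85. Glucagon markers summed to 4417 and 3586 CPM, and epithelial markers to 1716 and 5848 CPM. The part of these markers in the counts was not tested.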

How the results depend on the processing

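No paired analysis was possible because each genotype was 1 sample and its cells are not replicates. Of 55 ratios of named genes, 25 stayed on the same side of 1 under every alternative run. Of the 33 within the limit (3-fold between groups, 2-fold by genotype) as reported, 25 crossed 1 under some alternative. Of the 22 past that limit, 5 crossed 1, under 8 alternatives in all: *abcc8* in *sst1.2*-led cells by genotype (3.05 without plate B, from 0.110 with a plate left out), *cacna1c* by genotype in *ins*-led cells (1.30 without plate B, from 0.182) and in *sst1.1*-led cells (0.732 without its largest cell, 0.496 in the authors' table, 0.423 without plate E, up to 5.13 with a plate left out), *kcnc1a* in *sst1.2*-led cells (0.944 in the authors' table) and *scn3b* in *sst1.2*-led cells (0.988 without its largest cell, 0.285 without plate D, up to 5.32 with a plate left out). The causes were not tested, and leaving out 1 cell or plate shows only how far a ratio rests on it.

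Counts of genes past the limit moved under several alternatives. Marking of glucagon-led cells, 4 as reported, was 2 in thinned cells, 2 without the largest cell, 17 with no minimum of cells and 2 to 5 with a plate left out. For *sst1.1*-led cells, 1 as reported, it was 0 with mean per-cell CPM, 3 at a 5% hormone limit, 2 at 750 genes, 2 at 10000 counts, 6 with no minimum, 4 without second-hormone cells and 1 to 4 with a plate left out. For *sst1.2*-led cells, 6 as reported, it was 2 with mean CPM, thinned or without the largest cell, 19 with no minimum and 3 to 5 with a plate left out. For *ins*-led cells, 1 as reported, it was 2 with mean CPM, 0 thinned, 2 at 5%, 11 with no minimum, 3 without the largest cell and 0 to 3 with a plate left out. By genotype, *sst1.1*-led cells had 3 as reported, 1 at 750 genes, 24 with no minimum and 1 to 5 with a plate left out. *sst1.2*-led cells had 2 as reported, 0 thinned, at 5% or without second-hormone cells, 1 at 750 genes, at 10000 counts or without the largest cell, 21 with no minimum and 0 to 2 with a plate left out. *ins*-led cells had 4 as reported, 28 with no minimum and 3 to 7 with a plate left out.

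With a median of 8 cells per channel gene, depth and the number of cells limit every share, and a gene at 0 in a group of 29 cells can have a count in up to 10.3% of such cells, with no limit set on cells that hold its transcript uncounted.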
